A study of Homo sapiens with 5 samples.

Results

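The Notch pathway was followed through 10 human genes, the ligands DLL1, DLL3 and JAG1, the receptors NOTCH1 and NOTCH2, and the HES and HEY factors HES1, HES4, HES5, HES6 and HEY1. They were taken by name out of 32732 genes listed for all 5 libraries of a study of human brain organoids before and after grafting into mouse brain. The organoids came from H9, an established human embryonic stem cell line given as wild type in the labels; the study names the sequenced line AAVS-ChR2-EYFP H9, which carries channelrhodopsin and a yellow fluorescent protein. They were grown to day 42. The D0 library held organoids on the day of transplantation. The HIP_2MPT and PFC_2MPT libraries held grafts taken from the hippocampus (HIP) and the prefrontal cortex (PFC) of adult immunodeficient SCID mice at 2 months post transplantation (MPT), and the HIP_4MPT and PFC_4MPT libraries held those at 4 months. Each of the 5 conditions was 1 library of single cells, pooled from organoids or hosts that the labels do not tell apart. D0 differed from the grafts in more than transplantation: its cells were released with TrypLE rather than Trypsin-EDTA, its counts came from another version of Cell Ranger with a gene list of 33538 rather than 36601 genes, and it was read far deeper. Cells of the grafts, unlike those of D0, could also hold some mouse reads. These differences cannot be told apart from grafting or from age.

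Notch signalling works between touching cells. A ligand of the DLL or JAG family on one cell binds a NOTCH receptor on its neighbour, the receptor is cleaved, and its intracellular part joins the DNA-binding factor RBPJ to switch on HES and HEY genes, which encode repressors of the proneural factors that drive neuronal differentiation. In the developing cortex, radial glia with high HES1 and HES5 remain progenitors, intermediate progenitors and young neurons are known for presenting DLL ligands to them, and Notch activity also favours the astrocyte fate. HES6 is the exception in the family, since it is known to oppose HES1 and is itself turned on by proneural factors. DLL3 is known as an atypical ligand that acts mainly inside the cell that makes it.

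In the GENCODE annotation of GRCh38, HES1 lies at chr3:194136148-194138732 on the plus strand, HES4 at chr1:998962-1000172, HES5 at chr1:2528745-2530263 and HES6 at chr2:238238267-238240662, the latter genes on the minus strand. NOTCH1 spans chr9:136494433-136546048, NOTCH2 chr1:119911553-120100779, DLL1 chr6:170282206-170306565 and JAG1 chr20:10637684-10673999 on the minus strand, and DLL3 spans chr19:39498895-39508481 on the plus strand. The promoters of the 4 HES genes are shown because the levels of these genes carry most of the results and because RBPJ is known to act at promoters of HES genes. HES6, the exception in the family, is shown beside the others. Each runs from 250 bases before to 50 bases after the start of the gene in RefSeq (GRCh38.p14), 5′ to 3′ on the strand of the gene, and the capitals mark TGGGAA, the core of the RBPJ motif, or its reverse TTCCCA. The windows are chr3:194135898-194136197 for HES1, chr1:1000048-1000347 for HES4, chr1:2530214-2530513 for HES5 and chr2:238239989-238240288 for HES6.
HES1: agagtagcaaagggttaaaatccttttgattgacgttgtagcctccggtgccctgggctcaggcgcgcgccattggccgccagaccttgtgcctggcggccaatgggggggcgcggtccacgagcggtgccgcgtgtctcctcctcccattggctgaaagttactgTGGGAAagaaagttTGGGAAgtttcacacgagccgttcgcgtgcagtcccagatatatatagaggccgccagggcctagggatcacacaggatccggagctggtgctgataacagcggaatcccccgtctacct
HES4: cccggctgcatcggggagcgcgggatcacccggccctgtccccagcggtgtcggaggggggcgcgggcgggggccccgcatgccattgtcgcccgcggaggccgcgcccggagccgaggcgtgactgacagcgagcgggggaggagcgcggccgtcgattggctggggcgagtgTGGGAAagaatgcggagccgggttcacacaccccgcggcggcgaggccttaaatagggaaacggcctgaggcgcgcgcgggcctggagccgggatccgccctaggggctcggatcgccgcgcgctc
HES5: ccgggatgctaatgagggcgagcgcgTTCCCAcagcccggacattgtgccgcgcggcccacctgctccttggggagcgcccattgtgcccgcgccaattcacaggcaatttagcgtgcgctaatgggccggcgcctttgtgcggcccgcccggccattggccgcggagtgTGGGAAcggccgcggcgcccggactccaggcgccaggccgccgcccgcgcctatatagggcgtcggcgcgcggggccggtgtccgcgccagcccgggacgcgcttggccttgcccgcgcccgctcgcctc
HES6: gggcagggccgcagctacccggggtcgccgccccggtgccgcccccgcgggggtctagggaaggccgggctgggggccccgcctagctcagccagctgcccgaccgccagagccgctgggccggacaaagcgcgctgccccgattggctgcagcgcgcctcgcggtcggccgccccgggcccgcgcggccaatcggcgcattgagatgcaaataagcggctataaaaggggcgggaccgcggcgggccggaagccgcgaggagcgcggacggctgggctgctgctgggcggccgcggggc
HES1 held 2 matches, at -84 and -70 from its start, HES4 held 1 at -76, and HES5 held 2, at -80 and on the reverse strand at -224. HES6 held none in this window, nor did NOTCH1, NOTCH2 or JAG1, the other members with a promoter entry. The HES6 and NOTCH2 windows lie inside the GENCODE spans given above and do not cover the start of those spans. Of 35116 promoters of the same length, 24% held at least 1 match and 3.8% held 2 or more.

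After filtering, between 4885 and 8363 human cells were kept per library, with 11192237 to 55892222 UMIs (unique molecular identifiers, each standing for 1 captured transcript) in all. D0 had a median of 9847 UMIs per cell against 1253 in HIP_2MPT, the shallowest library, and 1840 to 2759 in the other grafts. Pairs of libraries shared 6 to 20 cell barcodes, at most 0.289% of the smaller library. Clusters were named from marker genes, with the Notch genes and HES and HEY genes kept out of the clustering, and 1612 progenitor-like, 141 intermediate-progenitor-like, 1671 neuron-like and 78 astrocyte-like cells were found in D0. In the grafts these classes held 405 to 492, 452 to 1009, 3860 to 6326 and 346 to 635 cells per library. Of the neuron-like cells of D0, 1130 sat in cluster 11, which held 3 cells from the grafts. Most astrocyte-like cells were in cluster 7, in which 8 of 12 astrocyte markers but also 12 of 12 radial glia markers were raised. None of its 10 leading genes was an astrocyte marker. It was named astrocyte-like rather than progenitor-like only through a rule that put the astrocyte list before the radial glia list. The 12 astrocyte markers summed to 564.9 CPM, the usual scaling of UMIs of a gene to all UMIs of a class, in the astrocyte-like cells of D0, where GFAP and HEPACAM were at 0, to 1603 and 2352 CPM in the grafts at 2MPT and to 12220 and 8234 CPM at 4MPT, so the D0 cells of this class lacked 2 of the defining markers of astrocytes. Cluster 6, led by EGFR, KIRREL3, GSX1 and OLIG1, had 5 of 12 astrocyte, 3 of 8 oligodendrocyte lineage and 3 of 12 radial glia markers raised. It stayed unnamed, since the mean log2 fold of the astrocyte list was -0.245 and 2 of its 10 leading genes were oligodendrocyte lineage markers. The cluster held 0.0614% of the cells of D0, 0.616% and 1.63% at 2MPT in HIP and PFC, and 14.4% and 8.2% at 4MPT.

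The question of which cells carried the pathway was answered first by the level of each gene in the 4 classes, as CPM over the summed UMIs of a class in a library. Intervals of CPM and of shares of cells cover counting error only. Cells of a class are not replicates, so the orders below are a description of 5 libraries without a test. In such sums, fewer expressing cells and less RNA per cell cannot be told apart.

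HES1, the broadest of the Notch-induced repressors, followed the same order in 5 of 5 libraries, astrocyte-like above progenitor-like above intermediate-progenitor-like above neuron-like cells. In astrocyte-like cells it stood at 378.9 CPM in D0 and at 1004, 1352, 953.2 and 701.6 CPM in HIP_2MPT, PFC_2MPT, HIP_4MPT and PFC_4MPT. In neuron-like cells it stood at 47.7 CPM in D0 and at 9.48, 7.39, 5.45 and 16.9 CPM in the 4 grafts. The gap between these classes was 2.99 to 7.51 on the log2 scale, smallest in D0. After each cell was thinned to 1000 UMIs, 45.4% to 59.2% of the astrocyte-like cells of the grafts had a HES1 UMI (63.0% to 84.7% unthinned). The neuron-like cells of the same libraries had shares of 0.663% to 1.45% (1.23% to 2.56% unthinned), and the part of background RNA in these was not tested. Before thinning, the median depth of these classes was 1202 to 4144 and 1254 to 2451 UMIs per cell. Within the progenitors, HES1 was higher in radial-glia-like than in cycling-progenitor-like cells in 4 of 5 libraries, with a median log2 ratio of 2.13 over the 5. D0 was the exception, with 349.1 CPM in radial-glia-like and 362.8 CPM in cycling-progenitor-like cells. The place of astrocyte-like above progenitor-like cells depended on the cycling cells: against radial-glia-like cells alone, HES1 was higher in astrocyte-like cells in 2 of 5 libraries, with a median log2 ratio of -0.23. In D0 the HES1 intervals of astrocyte-like and progenitor-like cells overlapped. The order also rests on the class names. Without integration, 1, 19 and 149 cells of D0, HIP_2MPT and PFC_2MPT were named astrocyte-like, and the order was not taken with those names. In that clustering a cluster with HES1 among its 10 leading genes was named progenitor-like, through the radial glia list. It held 428 and 409 cells of HIP_2MPT and PFC_2MPT, so at 2MPT the place of astrocyte-like above progenitor-like cells is not settled.

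HES5, the other main Notch effector of radial glia, was highest in progenitor-like cells in 5 of 5 libraries. Its level there was 625.2 CPM in D0 (95% interval 615.2 to 635.3), 191.5 CPM in HIP_2MPT (161.5 to 225.5), 3916 CPM in PFC_2MPT, 1481 CPM in HIP_4MPT and 3039 CPM in PFC_4MPT. HIP_2MPT was lowest and both PFC libraries were highest, and no interval touched another. Neuron-like cells held 79.3 CPM in D0 and 7.82, 59.8, 91.7 and 388.7 CPM in HIP_2MPT, PFC_2MPT, HIP_4MPT and PFC_4MPT, a log2 ratio to progenitor-like cells of -6.03 to -2.97. In PFC_4MPT 15.8% of the thinned neuron-like cells had a HES5 UMI (24.6% unthinned), against 0.701% to 6.16% in the other libraries, while HES1 UMIs were in 1.45% of the same cells. The neuron-like class was not made up alike in the libraries. Cluster 10, in which 6 of 7 inhibitory neuron markers were raised, gave 1094 of its cells in PFC_4MPT, 243 in HIP_4MPT, 13 and 20 in HIP_2MPT and PFC_2MPT and 74 in D0. HES5 stood in this cluster at 1178 CPM in PFC_4MPT, 520.0 CPM in HIP_4MPT and 145.2 CPM in D0.

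HES4, a HES factor that rodents lack and that is close to HES1 in sequence, was also highest in astrocyte-like cells in 5 of 5 libraries, at 242.6 CPM in D0 and 634.1 to 885.4 CPM in the grafts. Unlike HES1 it was well detected in neurons, where it stood at 67.8 CPM in D0 and at 277.9, 166.3, 74.7 and 124.4 CPM in HIP_2MPT, PFC_2MPT, HIP_4MPT and PFC_4MPT. It was higher in neuron-like than in intermediate-progenitor-like cells in 5 of 5 libraries, by a log2 ratio of 0.28 to 1.39. HEY1, a Notch-induced repressor related to the HES genes, was highest in progenitor-like cells of D0 (185.0 CPM) but in astrocyte-like cells of the 4 grafts (63.9 to 102.8 CPM, against 6.18 to 44.3 CPM in their progenitor-like cells). In HIP_2MPT the intervals of these 2 classes overlapped, and against radial-glia-like cells alone HEY1 was higher in astrocyte-like cells in 3 of 5 libraries.

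HES6 ran the other way. It was highest in intermediate-progenitor-like cells and lowest in astrocyte-like cells in 5 of 5 libraries, with progenitor-like and then neuron-like cells between. The intermediate-progenitor-like cells held 1367 CPM in D0 and 1630, 1720, 779.8 and 1107 CPM in HIP_2MPT, PFC_2MPT, HIP_4MPT and PFC_4MPT. On the log2 scale the ratio of neuron-like to intermediate-progenitor-like cells was -2.62 to -1.04, and that of astrocyte-like to neuron-like cells -1.88 to -0.83.

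The receptors were thinly counted and were spread over the progenitor and glial classes. NOTCH2 fell in the order of HES1 in 5 of 5 libraries, with 41.6 CPM in astrocyte-like and 5.75 CPM in neuron-like cells of D0 and 59.8 to 108.3 CPM against 2.02 to 7.41 CPM in the grafts. For NOTCH2 the intervals of astrocyte-like and progenitor-like cells overlapped in D0, HIP_2MPT and PFC_2MPT. Its values are uncertain, because NOTCH2 shares long stretches of sequence with the human NOTCH2NL copies, between which reads may be split. NOTCH1 was highest in astrocyte-like cells of the 4 grafts (39.4 to 70.3 CPM) and lowest in neuron-like cells in 5 of 5 libraries, though the interval of the highest class stood clear of the next only in PFC_4MPT. In PFC_4MPT the neuron-like cells, at 13.46 CPM, were all but level with the intermediate-progenitor-like cells, at 13.47 CPM from 13 UMIs.

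The ligands divided. DLL1, a canonical ligand, was highest in intermediate-progenitor-like cells of D0, at 280.5 CPM (256.6 to 306.0) against 46.3 CPM in progenitor-like cells, but in the grafts progenitor-like cells came above intermediate-progenitor-like cells in 4 of 4 libraries (40.9 to 68.9 CPM against 23.9 to 36.4 CPM), with overlapping intervals in HIP_2MPT and PFC_4MPT. DLL3 was higher in neuron-like than in progenitor-like cells in 5 of 5 libraries, at 95.6 CPM against 16.4 CPM in D0 and 58.6 to 110.6 CPM against 17.6 to 69.5 CPM in the grafts. JAG1, a ligand of the second family, was lowest in neuron-like cells in 5 of 5 libraries (2.28 to 11.8 CPM), and was highest in astrocyte-like cells of D0 (65.8 CPM) and in progenitor-like cells of the grafts (16.1 to 73.7 CPM). The interval of its highest class stood clear of the next only in D0 and HIP_4MPT.

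**Figure D1:**
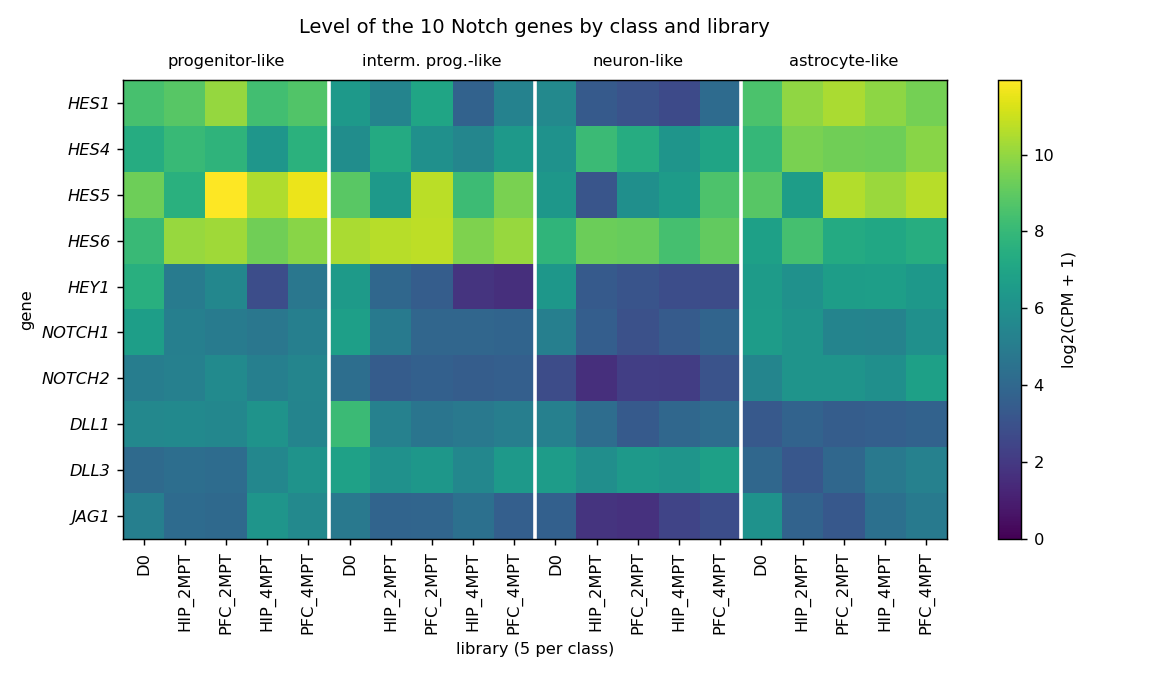
Level of each of the 10 Notch genes in CPM, on a log axis, in the progenitor-like, intermediate-progenitor-like, neuron-like and astrocyte-like cells of each library. HES1 and NOTCH2 fall from astrocyte-like to neuron-like cells in all 5 libraries, HES6 is highest in intermediate-progenitor-like cells in all 5, and HES5 is lowest in HIP_2MPT in every class.

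Cluster 6 carried much of the pathway at 4MPT. HES5 stood there at 178.5 CPM in HIP_2MPT from 14 UMIs, and at 6518, 3424 and 6462 CPM in PFC_2MPT, HIP_4MPT and PFC_4MPT, above the progenitor-like cells of the last 3 libraries. DLL3 stood at 38.3 CPM in HIP_2MPT from 3 UMIs, at 158.8 CPM in PFC_2MPT, and at 340.3 and 607.6 CPM in HIP_4MPT and PFC_4MPT. HEY1 had no UMI in its 51 cells of HIP_2MPT. The cluster held 51 and 97 cells at 2MPT and 993 and 686 cells at 4MPT in HIP and PFC. At 4MPT it gave 59.3% (HIP) and 48.6% (PFC) of all DLL1 UMIs, 51.1% and 41.4% of DLL3, 57.6% and 44.6% of JAG1 and 58.1% and 46.6% of HES5, but 3.37% and 4.79% of HES4, while it gave 16.7% and 10.8% of all UMIs of these libraries. At 2MPT the shares for the 3 ligands were 0.493% to 16.8%, while the cluster gave 0.701% (HIP) and 1.83% (PFC) of all UMIs. The ligand shares lay above these at 2MPT too, except DLL3 in HIP_2MPT.

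Grafts were compared with D0 to ask what differed after transplantation. In all human cells, HEY1 and NOTCH1 were lower in every graft, JAG1 and DLL1 were lower on average, and HES6 was higher. D0 has no replicate, so the fit took its spread from the HIP and PFC libraries of each stage, and p-values measure only the spread between these libraries. Of the 10 members, 5 passed an adjusted p of 0.05 in edgeR's quasi-likelihood test, 1 higher and 4 lower, in a comparison in which 53.3% of all genes tested passed (29.2% higher and 24.1% lower). That count therefore does not set the members apart from other genes. Their median log2 fold change was -0.63, against 0.06 over all genes.

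HEY1 was the most reduced member. It stood at 124.7 CPM in D0 and at 13.8, 20.1, 18.6 and 16.7 CPM in HIP_2MPT, PFC_2MPT, HIP_4MPT and PFC_4MPT, with every graft far below D0. The log2 fold change was -3.17 ± 0.239 (SE; edgeR adjusted p = 5.95e-06), and the drop also passed in progenitor-like (-3.23 ± 0.388, edgeR adjusted p = 9.18e-06), intermediate-progenitor-like (-4.08 ± 0.335, edgeR adjusted p = 5.9e-08) and neuron-like cells (-3.60 ± 0.249, edgeR adjusted p = 2.36e-07). In astrocyte-like cells the groups overlapped, with 91.3 CPM in D0 and 63.9, 98.1, 102.8 and 82.0 CPM in the grafts, and the test gave -0.25 ± 0.323 (edgeR adjusted p = 0.607). Whether HEY1 fell by a different amount in these cells than in the others was not tested.

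NOTCH1 passed the test in all 4 classes and in all cells together. Its level was 70.2 CPM in all cells of D0 and 17.4, 14.6, 20.4 and 23.8 CPM in HIP_2MPT, PFC_2MPT, HIP_4MPT and PFC_4MPT (log2 fold change -2.23 ± 0.229, edgeR adjusted p = 3.06e-05). In progenitor-like cells 102.9 CPM in D0 stood above 25.2 to 34.8 CPM in the grafts (-2.04 ± 0.286, edgeR adjusted p = 4.08e-05). The difference was -2.67 ± 0.31 in intermediate-progenitor-like, -1.92 ± 0.31 in neuron-like and -1.09 ± 0.34 in astrocyte-like cells (edgeR adjusted p = 3.2e-06, 0.00019 and 0.0243), and the last of these did not pass in 3 of 13 alternative fits. NOTCH2 passed in none of them, with log2 fold changes from -0.83 to 0.68.

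Among the ligands, DLL1 in intermediate-progenitor-like cells showed the widest gap, with 280.5 CPM in D0 and 36.4, 23.9, 27.5 and 33.1 CPM in HIP_2MPT, PFC_2MPT, HIP_4MPT and PFC_4MPT. No graft came near D0, and the log2 fold change was -3.29 ± 0.265 (edgeR adjusted p = 4.75e-08). This class was made up differently in D0. Radial glia markers summed to 4484 CPM there against 1222 to 2122 CPM in the grafts, and neuron markers to 1952 against 3187 to 4957 CPM. Intermediate progenitor markers, at 2091 CPM, lay within the grafts (1325 to 2416 CPM). Without integration only 8 D0 cells fell in the class. The part of these differences in any gene's values in this class was not tested. In neuron-like cells DLL1 was lower by -1.36 ± 0.323 (edgeR adjusted p = 0.00322), but in progenitor-like cells D0, at 46.3 CPM, lay among the grafts, at 40.9 to 68.9 CPM (-0.18 ± 0.316, edgeR adjusted p = 0.672). JAG1 in astrocyte-like cells stood at 65.8 CPM in D0 (57 UMIs) and at 12.8, 8.68, 20.1 and 29.5 CPM in the grafts, all below D0 (-2.26 ± 0.361, edgeR adjusted p = 0.00027). JAG1 was also lower in neuron-like cells (-1.84 ± 0.375, edgeR adjusted p = 0.00117). DLL3 passed the test in none of the 4 classes.

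HES1 was lower in the neuron-like and higher in the astrocyte-like cells of the grafts. In neuron-like cells it fell from 47.7 CPM in D0 to between 5.45 and 16.9 CPM in the grafts (log2 fold change -2.40 ± 0.395, edgeR adjusted p = 0.000221). In astrocyte-like cells it rose from 378.9 CPM to between 701.6 and 1352 CPM (1.19 ± 0.31, edgeR adjusted p = 0.00951). D0 lay outside the range of the grafts in both classes. How far background RNA entered the HES1 values of neuron-like cells was not tested. The 2 changes were not tested against each other. The astrocyte markers rose over the same comparison, and most neuron-like cells of D0 were in the separate cluster 11; the part of either in the HES1 values was not tested.

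HES4 rose in astrocyte-like cells, from 242.6 CPM in D0 to 728.9, 653.9, 634.1 and 885.4 CPM in HIP_2MPT, PFC_2MPT, HIP_4MPT and PFC_4MPT (1.38 ± 0.306, edgeR adjusted p = 0.00331). In neuron-like cells its change of 1.02 ± 0.397 only just passed (edgeR adjusted p = 0.0459) and did not pass in 5 of 14 alternative fits. HES6 rose in progenitor-like cells, from 271.9 CPM in D0 to 1084, 1200, 652.1 and 907.7 CPM, all above D0 (1.49 ± 0.322, edgeR adjusted p = 0.00163), and in neuron-like cells by 1.09 ± 0.381 (edgeR adjusted p = 0.028), which did not pass in 3 of 14 alternative fits. In intermediate-progenitor-like cells, where HES6 was highest, D0 lay within the range of the grafts (-0.17 ± 0.27, edgeR adjusted p = 0.655). The progenitor-like cells were themselves differently made up, with 593 cycling and 1019 radial-glia-like cells in D0 against 296 to 367 cycling and 96 to 164 radial-glia-like cells per graft. Neuron markers summed to 756.5 CPM in the progenitor-like cells of D0 and to 898.8 to 2266 CPM in those of the grafts, highest in HIP_2MPT, and the part of such RNA in the HES6 values was not tested.

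HES5 did not pass in any class. Over all cells it stood at 376.9 CPM in D0, at 36.0 CPM in HIP_2MPT and at 1141, 981.5 and 1504 CPM in PFC_2MPT, HIP_4MPT and PFC_4MPT, so that 1 graft lay below D0 and 3 above it (0.87 ± 1.13, edgeR adjusted p = 0.54). In neuron-like cells its log2 fold change was 0.09 with cluster 10 and -0.55 without it (edgeR adjusted p = 0.931 and 0.473). By class, 3 of 10 members passed in progenitor-like cells, 1 higher and 2 lower, where 42% of all genes passed (23.2% higher and 18.9% lower). In intermediate-progenitor-like cells 3 passed, all lower, against 36.7% of all genes (22.1% higher and 14.6% lower). In neuron-like cells 2 were higher and 5 lower, against 48.7% (28% higher and 20.6% lower), and in astrocyte-like cells 2 were higher and 2 lower, against 28.2% (16.5% higher and 11.8% lower). Scaling on total UMIs instead of the default normalisation moved the median of all genes from 0.06 to 0.41 in all human cells, and no member that passed there changed direction.

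**Figure D2:**
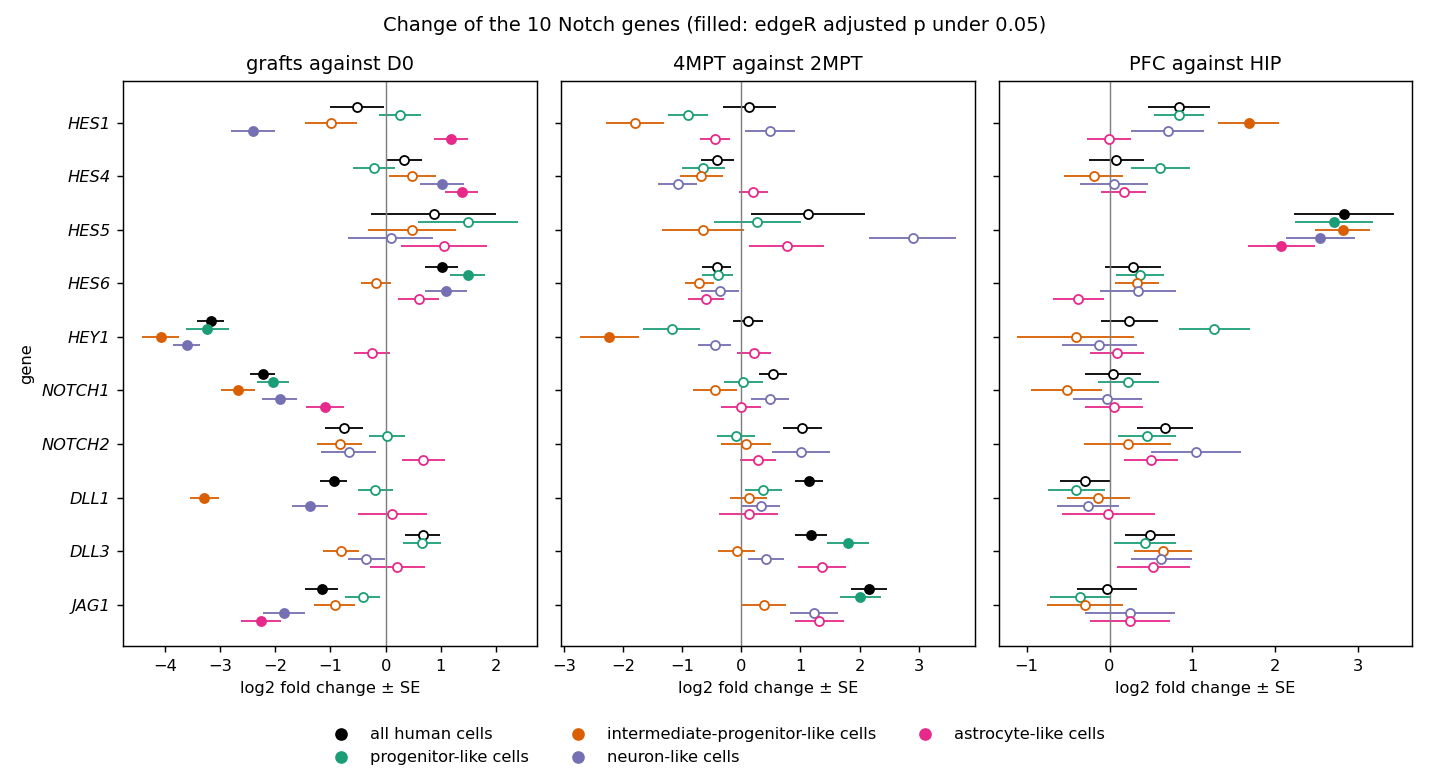
Log2 fold change of each member with its SE, by class, for grafts against D0, 4MPT against 2MPT and PFC against HIP; filled points passed the adjusted p of 0.05 in edgeR. HEY1 and NOTCH1 lie left of 0 in the grafts against D0, JAG1 and DLL3 right of 0 at 4MPT against 2MPT in progenitor-like cells, and HES5 right of 0 in all classes for PFC against HIP.

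The rest of the pathway was taken as 59 genes in 6 lists. Of 53 tested in all human cells, 7 rose and 18 fell, which is 47.2% against the 53.3% of all genes (median log2 fold change -0.39). In progenitor-like cells 6 of 46 rose and 12 fell (39.1% against 42% of all genes), in intermediate-progenitor-like cells 9 of 46 and 13 (47.8% against 36.7%), in neuron-like cells 9 of 52 and 16 (48.1% against 48.7%), and in astrocyte-like cells 4 of 41 and 5 (22.0% against 28.2%). NOTCH3, a receptor known from radial glia and vessel walls, fell from 27.9 CPM in D0 to 6.52 to 9.98 CPM in the grafts (-2.03 ± 0.288, edgeR adjusted p = 0.00023), whereas NOTCH4, known from endothelium, rose from 2.36 CPM to 9.97 to 11.9 CPM (1.89 ± 0.373, edgeR adjusted p = 0.00177). In the grafts NOTCH4 stood at 6.65 to 14.6 CPM in progenitor-like and at 9.68 to 11.9 CPM in neuron-like cells. The part of mouse reads or background RNA in these values was not tested. HEY2, the sister gene of HEY1, fell from 18.3 CPM to 0.625 to 2.24 CPM (-4.44 ± 0.36, edgeR adjusted p = 8.65e-06). DLK1, a non-canonical ligand and imprinted gene, stood at 168.4 CPM in D0 and at 0 to 1.07 CPM in the grafts.

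On the nuclear side, MAML3, a coactivator that binds the cleaved receptor with RBPJ, rose from 19.4 CPM in D0 to between 88.8 and 109.7 CPM (2.03 ± 0.281, edgeR adjusted p = 0.000196). MFNG, a fringe enzyme that adds sugars to NOTCH, fell in intermediate-progenitor-like cells from 137.2 CPM to 10.9 to 27.2 CPM (-2.95 ± 0.325, edgeR adjusted p = 1.81e-06). It also fell in neuron-like cells (-2.15 ± 0.377, edgeR adjusted p = 0.000368) and in all human cells (-1.26 ± 0.334, edgeR adjusted p = 0.00876). DLL1 was lower in these populations too. Among the proneural factors, INSM1 rose in progenitor-like cells (2.71 ± 0.359, edgeR adjusted p = 2.27e-05), and NEUROG2 fell (-2.63 ± 0.26, edgeR adjusted p = 1.55e-06). NEUROG2, known for dorsal cortical neurogenesis, stood at 201.0 CPM in D0, at 99.8 and 117.4 CPM at 2MPT and at 15.2 and 14.6 CPM at 4MPT.

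The 2 later grafts were compared with the 2 earlier ones to ask what changed between 2 and 4 months. In all human cells 3 members passed, the ligands JAG1, DLL3 and DLL1, all higher at 4MPT, against 2.4% of all genes (1.85% higher and 0.55% lower). The grafts at 2MPT and 4MPT are the same libraries that were set against D0, so the 2 comparisons are not independent. JAG1 stood at 5.63 and 8.26 CPM in HIP_2MPT and PFC_2MPT and at 36.9 and 23.8 CPM in HIP_4MPT and PFC_4MPT (2.16 ± 0.304, edgeR adjusted p = 0.00469). DLL3 stood at 54.3 and 70.0 CPM against 110.9 and 159.2 CPM (1.18 ± 0.268, edgeR adjusted p = 0.0478), and DLL1 at 23.1 and 18.0 CPM against 48.6 and 39.1 CPM (1.15 ± 0.237, edgeR adjusted p = 0.0314). For none of the 3 did the stages overlap.

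Much of this went with cluster 6. When its cells were left out, an alternative chosen after seeing the data, JAG1 still passed (1.48, edgeR adjusted p = 0.0277), while DLL1 changed by 0.26 (edgeR adjusted p = 0.735) and DLL3 by 0.51 (edgeR adjusted p = 0.507). JAG1 and DLL3 also rose within progenitor-like cells, a class that does not contain cluster 6. There JAG1 stood at 17.3 and 16.1 CPM at 2MPT and at 73.7 and 48.2 CPM at 4MPT in HIP and PFC (2.02 ± 0.344, edgeR adjusted p = 0.0081), and DLL3 at 18.6 and 17.6 CPM against 45.2 and 69.5 CPM (1.81 ± 0.355, edgeR adjusted p = 0.0214). The stages did not overlap, and 0.83% of all genes passed in this class (0.586% higher and 0.244% lower). The counts are small, with 13 and 32 JAG1 UMIs and 14 and 35 DLL3 UMIs at 2MPT. DLL1 did not pass there (0.37 ± 0.317, edgeR adjusted p = 0.958).

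Radial-glia-like and cycling-progenitor-like cells of this class were also fitted apart, chosen after seeing the data, and the difference between them was not tested. For JAG1 and DLL3, in radial-glia-like cells alone neither passed (1.85 and 1.49, edgeR adjusted p = 0.0555 and 0.56), while in cycling-progenitor-like cells alone both did (2.26 and 1.92, edgeR adjusted p = 0.000376 and 0.00154). The cycling cells were made up differently at the 2 stages. In their cluster 12, 5 of 7 inhibitory neuron markers were raised, and at a clustering resolution of 1.6 a cycling cluster led by GAD2, DLX1 and DLX2 separated, with 3 and 15 cells at 2MPT and 104 and 232 cells at 4MPT in HIP and PFC. That cluster stayed unnamed, and in the progenitor-like cells of that resolution, which leave it out, both genes passed (2.05 and 1.72, edgeR adjusted p = 0.00409 and 0.0354).

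In intermediate-progenitor-like cells only HEY1 passed, and was lower at 4MPT (0.884% of all genes passed, 0.541% higher and 0.342% lower), at 14.7 and 10.3 CPM against 2.50 and 2.07 CPM (-2.23 ± 0.503, edgeR adjusted p = 0.0377), on 19, 22, 6 and 2 UMIs; it did not pass in 10 of 15 alternative fits. No member passed in neuron-like cells (1.74% of all genes, 1.13% higher and 0.61% lower) or in astrocyte-like cells (3.21%, 2.38% higher and 0.836% lower) in edgeR. The nearest was HES5 in neuron-like cells, at 7.82 and 59.8 CPM at 2MPT and at 91.7 and 388.7 CPM at 4MPT in HIP and PFC (2.90 ± 0.733, edgeR adjusted p = 0.0665), where the stages did not overlap but each site differed widely within its stage. It passed with the graft site as a block. Cluster 10 held 13 and 20 cells of this class at 2MPT and 243 and 1094 at 4MPT, and without them, an alternative chosen after seeing the data, the change was 2.28 ± 0.594 (edgeR adjusted p = 0.0721).

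**Figure D3:**
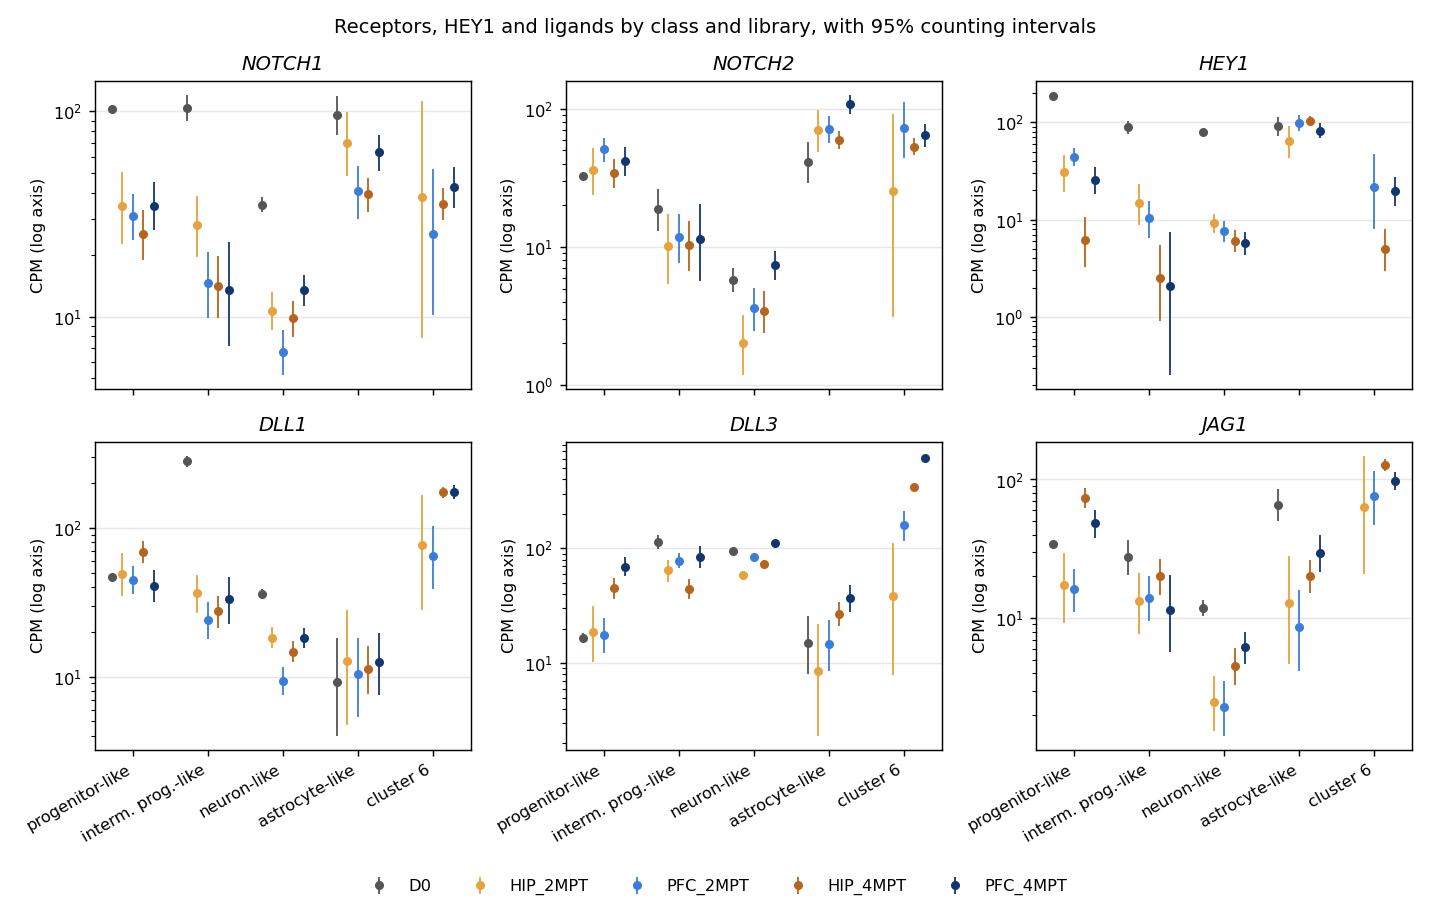
Level in CPM, on a log axis, of NOTCH1, NOTCH2, HEY1, DLL1, DLL3 and JAG1 by class and library, with 95% counting intervals and with cluster 6 beside the 4 classes. Classes under 50 cells in a library and the value of 0 for HEY1 in cluster 6 of HIP_2MPT are not drawn. JAG1 and DLL3 in progenitor-like cells are higher in both 4MPT libraries than in both 2MPT libraries, and DLL1 in intermediate-progenitor-like cells is highest in D0.

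Of the other 53 pathway genes tested in all human cells, 2 rose and none fell in edgeR between the stages. That is 3.77% against 2.4% of all genes, so the count does not set them apart from other genes. MAML2, another coactivator of the cleaved receptor, rose from 20.4 and 19.4 CPM to 133.4 and 96.7 CPM (2.59 ± 0.244, edgeR adjusted p = 0.000597) and rose in progenitor-like, neuron-like and astrocyte-like cells too (2.32 ± 0.3, 1.98 ± 0.309 and 1.70 ± 0.274, edgeR adjusted p = 0.000774, 0.00406 and 0.00197). Of the 6 proneural factors, NEUROG2 and NEUROD4 fell in progenitor-like cells (-2.73 ± 0.309 and -3.04 ± 0.427, edgeR adjusted p = 0.000278 and 0.00156). NEUROD4 stood at 38.6 and 34.8 CPM at 2MPT and at 3.80 and 4.27 CPM at 4MPT.

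PFC grafts were compared with HIP grafts, with the stage in the fit, to ask whether the site mattered. HES5 was the member that passed in every class, always higher in PFC, in a comparison that few genes passed. Of all genes, 0.0827% passed in all human cells (0.0662% higher in PFC and 0.0165% lower), 0.0256% in progenitor-like (0.0256% higher and 0% lower), 0.133% in intermediate-progenitor-like (0.071% higher and 0.0621% lower), 0.142% in neuron-like (0.111% higher and 0.0309% lower) and 0.102% in astrocyte-like cells (0.068% higher and 0.034% lower). The log2 fold change was 2.83 ± 0.603 in all human cells (edgeR adjusted p = 0.0434), 2.71 ± 0.47 in progenitor-like cells (0.0156), 2.82 ± 0.327 in intermediate-progenitor-like cells (9.97e-14), 2.55 ± 0.42 in neuron-like cells (3.83e-06) and 2.07 ± 0.406 in astrocyte-like cells (0.0112). Without cluster 10 the value in neuron-like cells was 2.07 ± 0.383 (edgeR adjusted p = 0.000162). With 1 library per site and stage the fit has 1 residual degree of freedom, so these SE and p-values lean on a spread shared with other genes. They do not measure how far the HES5 difference varied between the stages. The HES5 calls were also fragile. HES5 did not pass in 9 alternative fits in all human, 11 in progenitor-like and 10 in astrocyte-like cells, which was most of the alternatives there. In intermediate-progenitor-like and neuron-like cells it did not pass in 4 each. With no stage in the fit it passed in no population.

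The size of the HES5 difference was not the same at both stages. At 2MPT the ratio of PFC to HIP was 31.7 in all human cells (95% counting interval 28.7 to 35.1), 20.4 in progenitor-like, 19.3 in intermediate-progenitor-like, 7.64 in neuron-like and 15.3 in astrocyte-like cells. At 4MPT it was 1.53, 2.05, 2.55, 4.24 and 1.4 in the same order. HES5 was thus higher in PFC at both stages in all 4 classes, but most of the distance came from HIP_2MPT, in which HES5 was at 36.0 CPM overall against 981.5 CPM in HIP_4MPT. The low value held within radial-glia-like cells, at 267.6 CPM in HIP_2MPT against 5703, 3096 and 5226 CPM in PFC_2MPT, HIP_4MPT and PFC_4MPT, and in cluster 6. HIP_2MPT was also the shallowest library, with the lowest radial glia marker sum in progenitor-like cells (3331 CPM against 3792 to 9432 CPM) and the highest neuron marker sum (2266 CPM); the part of these in the HES5 values was not tested. After every cell was thinned to 1000 UMIs, 12.0% (8.92 to 15.6) of the progenitor-like cells of HIP_2MPT held a HES5 UMI. In PFC_2MPT the share was 59.4% (54.9 to 63.8), with 16.1% and 71.3% unthinned in HIP_2MPT and PFC_2MPT. Thinning evens the depth of the cells but not the mix of RNA in them.

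HES1 was tested on the same libraries. Its lowest level in all human cells, 91.5 CPM, was in HIP_2MPT, as was its lowest level in cluster 6, 433.6 CPM from 34 UMIs. In progenitor-like cells it stood at 456.2 and 1046 CPM in HIP and PFC at 2MPT and at 319.4 and 409.7 CPM at 4MPT (0.84 ± 0.303, edgeR adjusted p = 1.0). In astrocyte-like cells it was at 1004 and 1352 CPM at 2MPT and at 953.2 and 701.6 CPM at 4MPT, with the sites overlapping. HES1 passed only in intermediate-progenitor-like cells, at 40.3 and 127.2 CPM at 2MPT and 12.5 and 38.3 CPM at 4MPT (1.68 ± 0.371, edgeR adjusted p = 0.00873), which was higher in PFC by 3.15-fold and 3.07-fold at the 2 stages. It did not pass there in 7 of 15 alternative fits. The difference between HES5 and HES1 was not itself tested. The other 8 members passed in no class in edgeR.

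**Figure D4:**
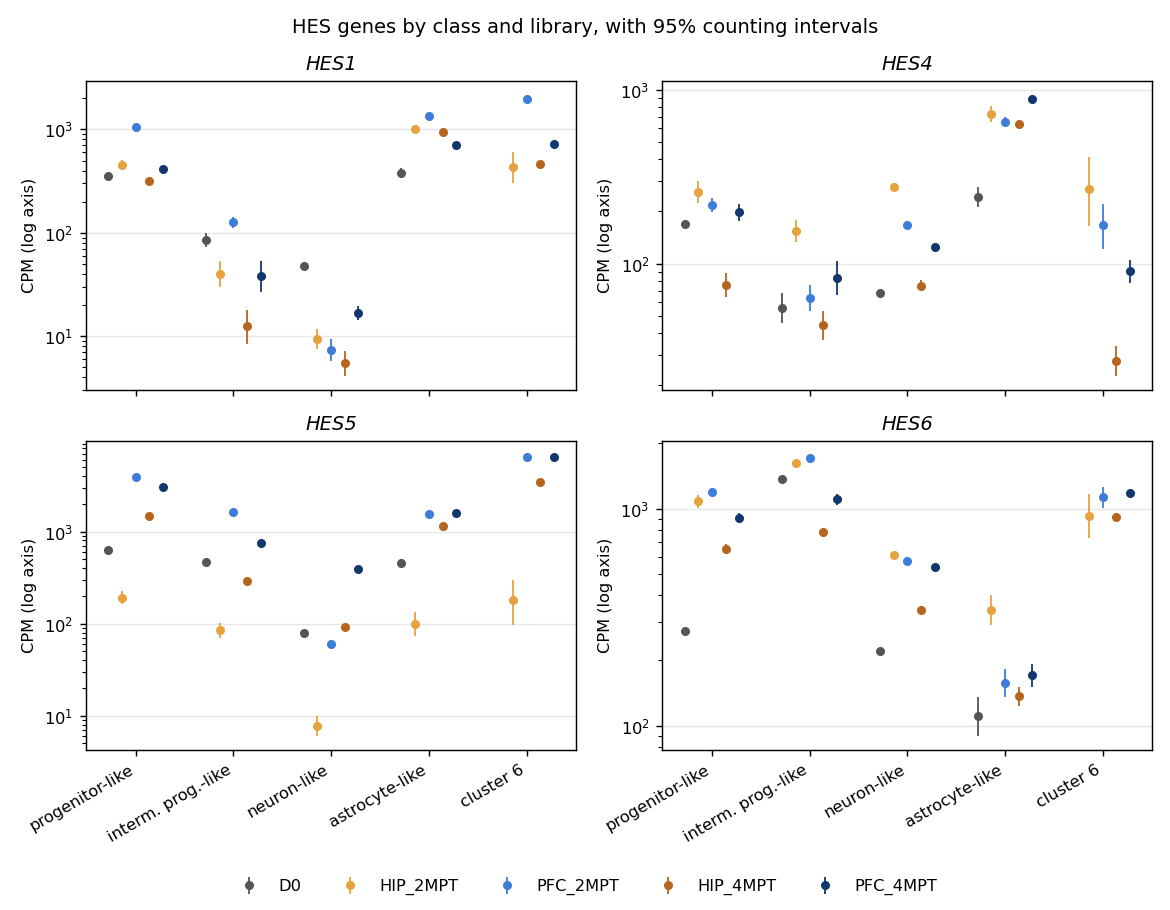
Level in CPM, on a log axis, of HES1, HES4, HES5 and HES6 by class and library, with 95% counting intervals and with cluster 6 beside the 4 classes. Classes under 50 cells in a library are not drawn. HES5 in HIP_2MPT lies below every other library in every class. HES1 in HIP_2MPT lies among the others in progenitor-like and astrocyte-like cells but is the lowest in cluster 6.

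NRARP, a direct Notch target that feeds back on the cleaved receptor, was the only other pathway gene of the 59 to pass between sites, and did so in neuron-like cells, at 4.27 and 22.7 CPM in HIP and PFC at 2MPT and 8.77 and 24.2 CPM at 4MPT (1.97 ± 0.388, edgeR adjusted p = 0.000551). In all human cells NRARP stood at 6.08 CPM in HIP_2MPT and at 40.6, 40.6 and 39.9 CPM in PFC_2MPT, HIP_4MPT and PFC_4MPT, so that HIP_2MPT was low in this target as in HES5. Progenitor-like and astrocyte-like cells gave 6.72% and 4.19% of all UMIs in HIP_2MPT. In the other grafts they gave 9.73% to 13.1% and 7.61% to 12.8%. The part of this in the NRARP values of all human cells was not tested. None of the 6 proneural factors passed between the sites in edgeR.

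Ligand and effector were then looked for in the same cells, since Notch is known to separate cells that send from cells that receive. A ligand cell was one with at least 1 UMI of DLL1 or DLL3 among 1000 UMIs, and the partners were any of HES1, HES4 and HES5 as effectors, HES6, and any proneural factor. JAG1 was not counted, and DLL3 is known to act mainly inside the cell that makes it. Ligand cells are therefore not the same as sending cells, and the shares do not show which cells sent or received. In progenitor-like cells there were 84, 29, 31, 46 and 52 ligand cells in D0, HIP_2MPT, PFC_2MPT, HIP_4MPT and PFC_4MPT. A HES6 UMI was present in 38.1%, 69.0%, 87.1%, 58.7% and 63.5% of them, against 15.3%, 56.3%, 55.1%, 45.6% and 47.4% of the other progenitor-like cells, higher in 5 of 5 libraries. Proneural factors were also higher in ligand cells in 5 of 5 libraries, at 34.5% against 17.1% in D0 and 55.2% to 71.7% against 41.5% to 50.6% in the grafts. The intervals of ligand and other cells overlapped in HIP_2MPT and PFC_4MPT for both partners, in HIP_4MPT for HES6 and in PFC_2MPT for proneural factors. Effectors were not parted from ligands in the same way, and their intervals overlapped in every library. They were in 47.6% of ligand cells against 58.7% of other cells in D0, and in 44.8%, 87.1%, 56.5% and 61.5% against 44.2%, 71.6%, 54.4% and 63.7% in HIP_2MPT, PFC_2MPT, HIP_4MPT and PFC_4MPT, higher in ligand cells in 3 of 5 libraries. With unthinned cells, in which deeper cells show more of every gene, effectors were higher in ligand cells in 5 of 5 libraries. In intermediate-progenitor-like cells the thinned shares of effectors and of HES6 were higher in ligand cells in 5 of 5 libraries, and of proneural factors in 3 of 5. For HES6 the differences in PFC_2MPT and PFC_4MPT, of 0.517 and 0.0939 percentage points, lay well within the intervals, and with unthinned cells effectors and HES6 were each higher in 4 of 5 libraries. These shares describe cells of 5 libraries and carry no test.

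**Figure D5:**
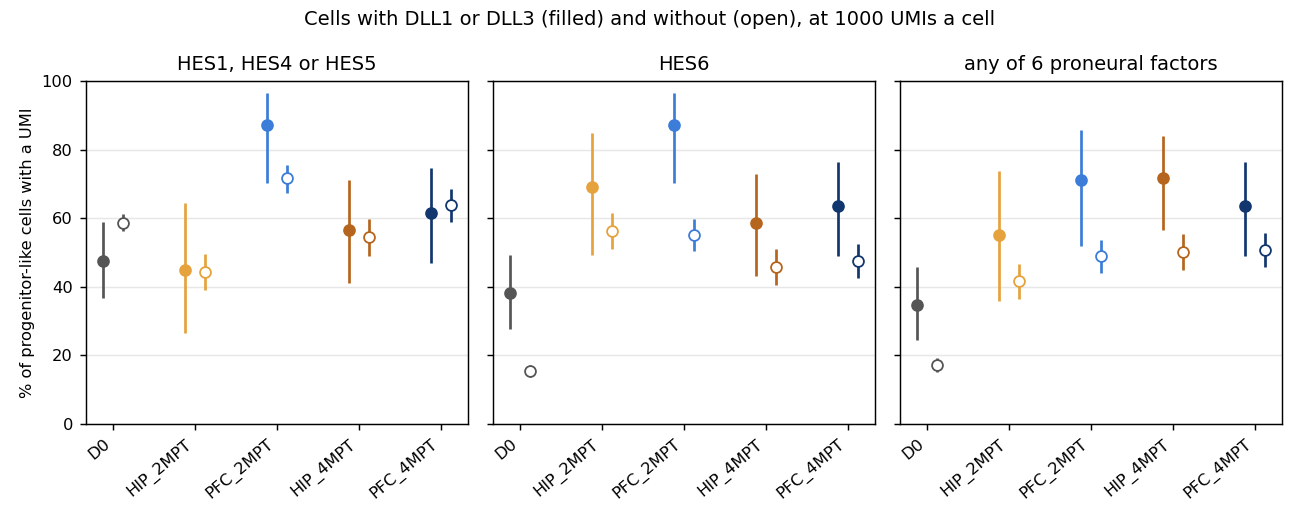
Percent of thinned progenitor-like cells with a UMI of an effector, of HES6 or of a proneural factor, in cells with and without a DLL1 or DLL3 UMI, by library, with 95% exact binomial intervals. HES6 and proneural factors are higher in ligand cells of the progenitor-like class in all 5 libraries, while effectors are not.

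Across the 20 sums of 4 classes and 5 libraries, the genes whose level on the log2(CPM + 1) scale ran most like that of each member were found among 10075 genes; these points share libraries and depth, so Pearson's r is given as a description. HES1 ran most like NOTCH2 (r = 0.951), YAP1 (0.941) and IFITM3 (0.938), and NOTCH2 like YAP1 (0.964), PLPP3 (0.956) and EMP3 (0.955). HES6 ran most like EOMES (0.926), the defining factor of intermediate progenitors, NEUROD4 (0.882) and CORO1C (0.871). EOMES and NEUROD4 were among the leading genes of the intermediate-progenitor-like cluster, the class in which HES6 was highest. Their likeness to HES6 therefore restates that order and is not separate evidence. HES4 was closest to RASA3 (0.906), ACP2 (0.904) and IGFBP4 (0.895), and HES5 to TMX1 (0.896), DHRS7 (0.832) and NFYB (0.83). HEY1 was closest to SCD and FDPS (both 0.945), enzymes of fatty acid and sterol synthesis, and to PRXL2A (0.942), and NOTCH1 to PLOD2 (0.948), RCN1 (0.935) and GPC4 (0.934). Of the ligands, DLL1 was closest to MFNG (0.831), CHD7 (0.766) and SFPQ (0.764), DLL3 to CD200 (0.838), SOX4 (0.833) and ZNRF1 (0.832), and JAG1 to GAS1 (0.88), RAB13 (0.879) and SPTSSA (0.844). The 20 sums include the intermediate-progenitor-like cells of D0, where DLL1 and MFNG both stood above the grafts, so their likeness is not separate evidence. The best match of DLL1 was the weakest of the 10, and that of NOTCH2 the strongest.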

How the data were processed

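Single-cell 3′ RNA-seq was measured in 5 libraries, D0, HIP_2MPT, PFC_2MPT, HIP_4MPT and PFC_4MPT. The authors deposited UMI counts per gene and barcode, as made by Cell Ranger with GRCh38 (3.1.0 for D0 and 5.0.0 for the grafts per the file headers, 3.1 in the submitters' processing notes); counts of the grafts on a joint human and mouse reference were used to find human barcodes. A cell had to hold more than 500 UMIs and more than 500 genes, a ratio of their logs (genes to UMIs, base 10) above 0.8, a mitochondrial share under 0.15 and, in the grafts, a human share over 0.8; this also removed barcodes of mixed species, and no doublet caller was run. Libraries were integrated in Seurat 5.3.0 (sctransform 0.4.2, R 4.3.3, reciprocal PCA) on 2500 variable genes, with 66 Notch genes kept out, 40 components and resolution 0.8, giving 20 clusters. A cluster took the fixed list with the largest share of raised markers. Radial glia gave way to astrocyte where 50% or more of the astrocyte markers were raised. The cluster was named when at least 3 markers making up 25% or more of its list were raised, with a positive mean log2 fold of that list. No other class could hold more of its 10 leading genes, but radial glia markers did not count against the astrocyte class. Very shallow clusters without a marker among these genes stayed unnamed. Classes under 50 cells in a library were left out. UMIs were summed per class and library. The quasi-likelihood test of edgeR 4.0.16 was run on these sums after filterByExpr and TMM scaling, with Benjamini-Hochberg adjustment over all genes tested, in a fit of D0, 2MPT and 4MPT with the 2 sites as replicates of a stage, and for PFC against HIP in the 4 grafts with the stage as a covariate. The study tested single cells, for which cells stand as replicates; libraries were used here instead. CPM carry exact Poisson intervals and shares exact binomial (Clopper-Pearson) intervals at 95%, which cover counting error only. Member genes were all described. Of other pathway genes, at most 3 per list and comparison were named, those that passed with the largest change, and NRARP in all human cells, DLK1 and the marker genes were given beside them; 1 gene of the proneural list is not reported here. DESeq2 1.42.0, other filters, scalings and clusterings, a site block and leaving out each library were alternatives. The members and lists were chosen with earlier results of these data known. The tests were tried on simulated data.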

Additional observations from a re-analysis of the deposited data

Results flagged for a closer look

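With 1 library per site and stage, the ratio of PFC to HIP could be taken at 2MPT and at 4MPT for each member, in all human cells and in each class. In 12 cases it lay on opposite sides of 1 at the 2 stages with counting intervals clear of 1. These cases are not independent, since all human cells include the classes. How often other genes did the same was not counted, so the number does not set the members apart from other genes. The difference between the stages was not tested, since no condition has a replicate. HES4 was lower in PFC at 2MPT and higher at 4MPT in all human cells (ratios 0.697 and 1.5), in progenitor-like cells (0.837 and 2.61), in intermediate-progenitor-like cells (0.411 and 1.88) and in neuron-like cells (0.598 and 1.67). HES6 did the same in neuron-like cells (0.945 and 1.56) and astrocyte-like cells (0.458 and 1.25), and NOTCH1 in neuron-like cells (0.632 and 1.38) and astrocyte-like cells (0.58 and 1.6). The opposite order, higher in PFC at 2MPT and lower at 4MPT, was seen for HES1 in all human cells (3.58 and 0.842) and astrocyte-like cells (1.35 and 0.736), for HEY1 in astrocyte-like cells (1.53 and 0.798) and for JAG1 in all human cells (1.47 and 0.645). HIP_2MPT, the shallowest library, is in every ratio at 2MPT, and its part in these values was not tested.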

How the results depend on the processing

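Of 228 alternative values for counts of members, 149 stayed within 1.5 times the reported count and 79 did not. For grafts against D0, 5 members passed in progenitor-like cells with radial-glia-like cells alone, and 5 in intermediate-progenitor-like cells with no filter on low counts or without the 5% of cells with the most UMIs. Leaving out each library in turn gave 5 to 8 in all human cells, the most without PFC_2MPT, and 4 to 6 in intermediate-progenitor-like cells. For the later against the earlier grafts, in all human cells 1 passed with total UMIs as the scale, 5 with no filter and 1 without cluster 6, and leaving out a library gave 0 (without PFC_4MPT) to 6 (without PFC_2MPT). In progenitor-like cells 1 passed with total UMIs and 0 in radial-glia-like cells alone, and 1 to 5 with a library left out. In intermediate-progenitor-like cells 2 passed with no filter or a mitochondrial share under 0.1, and 0 with DESeq2, over 1000 UMIs, a human share over 0.9, without the 5% of cells with the most UMIs, with the dual reference, at resolution 1.6 or without integration (0 to 3 with a library left out). In neuron-like cells 2 passed with no filter and 1 with the mitochondrial limit, and in astrocyte-like cells 1 with no filter (both 0 to 2 with a library left out).

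With the graft site as a block, which pairs the HIP and the PFC libraries across stages by site only, 4MPT against 2MPT gave 4 members in all human cells (HES5 added), 2 in progenitor-like, 1 in intermediate-progenitor-like (HES1 in place of HEY1), 1 in neuron-like and 1 in astrocyte-like cells (HES5 in both).

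For PFC against HIP the calls were fragile. HES1 in intermediate-progenitor-like cells did not pass in 7 of 15 alternatives. HES5 passed in 5 of 14 alternatives in all human cells, 6 of 17 in progenitor-like, 11 of 15 in intermediate-progenitor-like, 12 of 16 in neuron-like and 5 of 15 in astrocyte-like cells, always with the same direction. Members passing were 0 with DESeq2 in all classes but neuron-like cells, 0 with total UMIs and over 1000 UMIs in all human and progenitor-like cells, and 0 with no stage in the fit in all 5 populations. Without the 5% of cells with the most UMIs they were 0 in all human, progenitor-like and astrocyte-like cells and 1 in intermediate-progenitor-like cells, where no integration also gave 1. They were 0 at resolution 1.6 in progenitor-like and astrocyte-like cells, 0 in radial-glia-like and cycling-progenitor-like cells alone, 0 in cluster 7 alone, 0 at a human share over 0.9 in astrocyte-like cells and 0 without cluster 6 in all human cells. Leaving out a library with the stage in the fit leaves no residual degrees of freedom, so it was done without the stage, chosen after seeing the data, and gave 0 to 1 in all human, progenitor-like and neuron-like cells, 0 to 2 in intermediate-progenitor-like and 0 in astrocyte-like cells. Co-detection counts of libraries rose from 3 to 5 with cells not thinned, for effectors in progenitor-like and for proneural factors in intermediate-progenitor-like cells. The cause of these changes was not tested.

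Among 2209 values of single members, 1921 kept direction and side of the threshold or moved within the spread, and 4 reversed, all for HES5 without PFC_2MPT. With a library left out, its log2 fold change for grafts against D0 ran from -1.17 to 1.35 in all human, from -1.21 to 0.946 in intermediate-progenitor-like and from -1.05 to 0.511 in neuron-like cells, the lowest without PFC_2MPT and the highest without HIP_2MPT, and for 4MPT against 2MPT from -1.59 without HIP_2MPT to 2.74 without PFC_2MPT in intermediate-progenitor-like cells. Without integration, the grafts could not be set against D0 in intermediate-progenitor-like and astrocyte-like cells, nor PFC against HIP in astrocyte-like cells, for want of 50 cells. HES5 therefore rests on PFC_2MPT and HIP_2MPT in the first 2 comparisons. Depth limits the ligands, the receptors and HEY1, which had under 50 UMIs in many classes.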

Other observations

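Choroid-plexus-like cells, of which D0 held 405, entered none of the comparisons by class. There HES1 stood at 319.0 CPM (95% counting interval 305.7 to 332.7), HES4 at 119.9 CPM (111.8 to 128.4) and HES5 at 114.7 CPM (106.8 to 123.1). HES6 stood at 40.9 CPM (36.2 to 46.0) and HEY1 at 28.2 CPM (24.4 to 32.5). Of the receptors, NOTCH2 was at 46.9 CPM (41.9 to 52.4) and NOTCH1 at 29.3 CPM (25.3 to 33.6), and the ligands were at 24.7 CPM for JAG1, 16.5 CPM for DLL3 and 16.0 CPM for DLL1.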
